A study of Mus musculus with 15 samples.

Results

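The 43 genes examined here encode enzymes, membrane proteins and proton pump subunits of the lysosome and were listed by gene name, with earlier results of these data known: 9 proteases, 11 glycosidases, 5 sulfatases, 6 genes of lipid handling, 5 membrane proteins with the secreted and lysosomal glycoprotein progranulin, and 6 genes of the proton pump. All 43 were among the 46078 genes of the first count table and 42 among the 13063 named genes of the second, in which Ctsk was not analysed here. The lysosome is the acidic compartment in which cells break down proteins, glycans, lipids and nucleic acids. Its soluble enzymes are tagged with mannose 6-phosphate in the Golgi and delivered to it, membrane glycoproteins line it, and a proton pump of many subunits, the V-ATPase, keeps it acidic. Transcription factors of the MiT/TFE family, TFEB and TFE3 among them, are known to drive many lysosomal genes through E-box sequences near their start sites.

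The cells were satellite cells from mouse hindlimb, which are the stem cells of muscle fibres, cultured in F10 medium with 10% horse serum. In batch 1, 3 libraries came from cells given 0.05 mM adenosine and 3 from cells given DMSO. In batch 2, made from C57BL/6J mice, 3 libraries came from cells given 0.1 mM adenosine, 3 from cells given 0.25 mM AMP and 3 from cells given DMSO. All 5 groups were treated for 24 hours, and the labels name no transgene or deletion in any of them. AMP is adenosine with a phosphate group, and the labels do not give the strain of batch 1, the ages or the sexes. The labels do not say whether the replicate libraries stem from different mice or culture dishes; p-values therefore reflect variation among libraries alone, and that may be technical. Adenosine dose and batch changed together, as did compound and dose within batch 2, and neither pair can be told apart. The 15 libraries were made by Smart-seq2 and held 14683346 to 20799588 counts in batch 1 and 11107450 to 14201933 in batch 2. Satellite cell markers were present in every library and summed lower in every treated one: 10 markers together had 1552 to 1962 FPKM with adenosine and 2973 to 3171 FPKM with DMSO in batch 1, and 1142 to 1277 FPKM with adenosine and 1179 to 1507 FPKM with AMP, against 2170 to 2493 FPKM with DMSO in batch 2. Myod1 was the highest of the 10 in DMSO cells of both batches. It had 582 ± 119.8 FPKM with adenosine and 1569 ± 99.9 FPKM with DMSO in batch 1 (SD, n = 3). In batch 2 it had 356 ± 17.2 FPKM with adenosine and 448 ± 62.6 FPKM with AMP, against 934.5 ± 122 FPKM with DMSO. By gene, 1 rose and 7 fell with 0.05 mM adenosine, 2 rose and 8 fell with 0.1 mM adenosine, and 2 rose and 7 fell with AMP. Sdc4, a surface proteoglycan, rose with each treatment, and Pax7, the transcription factor that marks satellite cells, rose in batch 2, where it had 10.3 ± 0.292 FPKM with adenosine and 12.3 ± 1.11 FPKM with AMP, against 8.03 ± 0.630 FPKM with DMSO (SD, n = 3). Smooth muscle and pericyte markers also summed lower: those in the table summed to 11.7 to 30.7 FPKM with adenosine and 128 to 333 FPKM with DMSO in batch 1 (6 markers), and to 10.8 to 23.7 FPKM with adenosine and 35.6 to 92.4 FPKM with AMP, against 145 to 266 FPKM with DMSO in batch 2 (2 of the 6). Nearly all of these sums was Acta2, an actin, with 20.1 ± 9.66 FPKM with adenosine and 250.7 ± 108.7 FPKM with DMSO in batch 1, while Pdgfrb, a receptor of pericytes, was not called there at 0.461 ± 0.380 FPKM with adenosine and 0.211 ± 0.0424 FPKM with DMSO. Endothelial markers (6, of which 2 in batch 2) summed higher, at low levels: 3.483 to 4.603 FPKM with adenosine and 1.237 to 1.496 FPKM with DMSO in batch 1, and 1.70 to 2.04 FPKM with adenosine and 1.83 to 2.35 FPKM with AMP, against 0.468 to 1.24 FPKM with DMSO in batch 2. Of the endothelial markers tested, 1 of 3 rose in batch 1 and 1 of 2 with each treatment of batch 2. The others were not called, so the sums do not show a rise of these markers as a set. In batch 1 the 8 fibro-adipogenic and fibroblast markers summed to 35.95 to 41.06 FPKM with adenosine and 44.0 to 53.8 FPKM with DMSO. In batch 2, 3 of them summed to 32.0 to 33.0 FPKM with adenosine, 44.2 to 52.8 with AMP and 45.1 to 53.7 with DMSO. In CPM nearly all of these sums was Cd34. By gene, 0 rose and 1 fell of the 4 tested with 0.05 mM adenosine. Of the 3 tested in batch 2, 1 rose and 2 fell with 0.1 mM adenosine, and 1 rose and 0 fell with AMP. The lower sums with adenosine therefore do not show a fall of these markers as a set. Of the 6 osteoclast markers, only Calcr, a calcitonin receptor, was in the batch 2 table. It fell with both treatments, at 5.83 ± 1.53 CPM with adenosine and 4.775 ± 0.394 CPM with AMP, against 7.73 ± 1.72 CPM with DMSO. A call of 1 gene does not speak for these markers as a set. The part of these markers in the results below was not tested. In bulk RNA, fewer cells of a type and less RNA per cell cannot be told apart.

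More lysosomal genes rose than fell with every treatment. With 0.05 mM adenosine, 22 of the 42 members tested rose and 1 fell, where 19.6% of all 13842 genes tested rose and 19.5% fell, 39.2% in either direction (edgeR, adjusted p under 0.05). With 0.1 mM adenosine, 24 of 42 rose and 8 fell, against 34.9% and 34.5% of all 13063 genes (69.4% in either direction). With 0.25 mM AMP, 24 rose and 8 fell, against 33.7% and 31.8% of all genes (65.6% in either direction). The median log2 fold change of the members was 0.43 with 0.05 mM adenosine, 0.45 with 0.1 mM adenosine and 0.38 with AMP, while the medians of all genes were 0.03, 0.01 and 0.01. The remaining member, Ctsk, a collagen-cutting protease of osteoclasts, did not pass the filter on low counts in batch 1.

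Where libraries were scaled by their totals, the median of all genes moved to 0.22, 0.32 and 0.28 on the log2 scale, and the lysosomal calls became 23 higher and 1 lower, 29 higher and 4 lower, and 29 higher and 4 lower. All genes then split into 4012 higher and 1955 lower, 6344 and 2891, and 6037 and 2605. The members' medians stood 0.40, 0.43 and 0.36 above those of all genes on that scaling. Glb1, Arsb and Asah1 fell in batch 2 on either scaling, as did Fuca1 with 0.1 mM adenosine and Atp6v0e with AMP. Members not called in a comparison with DMSO could pass under another setting: 4 did so in at least 1 alternative with 0.05 mM adenosine (Manba, Fuca1, Asah1 and Npc2), 5 with 0.1 mM adenosine (Ctsh, Npc1, Npc2, Psap and Atp6ap2) and 5 with AMP (Idua, Smpd1, Npc2, Psap and Atp6ap2), and scaling by totals was among those alternatives for all but Manba, Fuca1 and Asah1.

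The libraries themselves separated in most called members. All 3 adenosine libraries of batch 1 lay above all 3 DMSO libraries in FPKM for 22 members and below for 6, where 25.8% and 25.7% of all genes did so. The counts were 26 above and 8 below for 0.1 mM adenosine (37.1% and 36.5% of all genes) and 24 above and 10 below for AMP (35.5% and 35% of all genes). In CPM, which scales counts to the library total, 29 members lay above and 1 below in batch 1 (35.7% and 17.9% of all genes), 31 and 5 for 0.1 mM adenosine (50.3% and 24.3%) and 31 and 5 for AMP (48.4% and 22.3%). Members below DMSO in FPKM but not in CPM were Ctsh, Gusb, Arsb, Galns and Atp6v0e with 0.05 mM adenosine, Ctsz, Gusb and Sgsh with 0.1 mM adenosine, and Ctsz, Gaa, Gusb, Sgsh and Lipa with AMP. Of the 22 members that rose in batch 1, 20 also rose with 0.1 mM adenosine in batch 2, which is 90.9% of the batch 1 list and 83.3% of the 24 genes of the batch 2 list. Over all 12123 genes tested in both batches the shares were 87.9% of 2374 and, with 2087 genes shared, a lower share of 4173; the first share of the members lay near that of all genes. Glb1 fell in both batches, as the 1 member of the batch 1 list and 12.5% of the 8 members of the batch 2 list. Over all genes that fell, 90.5% of 2559 in batch 1 and 53.8% of 4302 in batch 2 were shared. In the authors' deposited table for batch 1, 22 members were marked significant and higher with adenosine, 1 was marked significant and lower, and 20 were not marked.

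**Figure D1:**
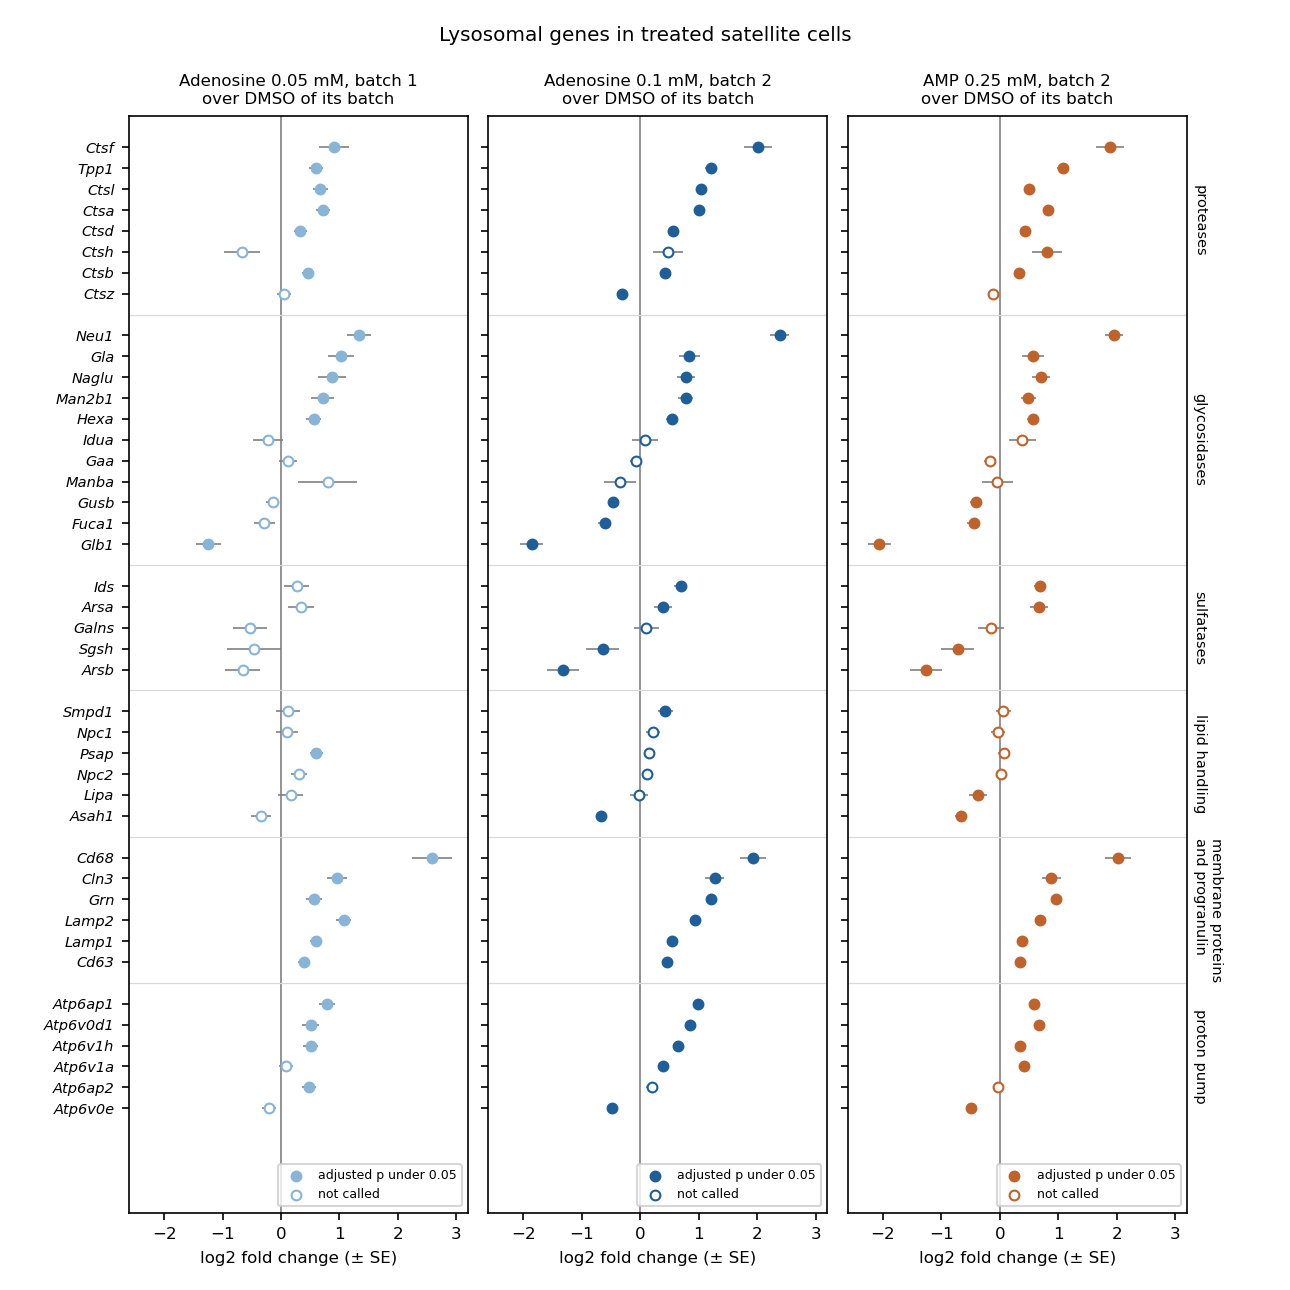
Log2 fold changes (x axis, ± SE) of the 42 tested lysosomal genes, listed down the page by role, for 0.05 mM adenosine, 0.1 mM adenosine and 0.25 mM AMP, each over DMSO of its own batch. Filled points passed an adjusted p of 0.05. The 6 genes of membrane proteins and progranulin lie right of 0 in each panel, and Glb1 lies farthest left in each, at -1.24, -1.86 and -2.06.

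The levels of the members spanned a wide range on the FPKM scale, which corrects for gene length. Cd63, a tetraspanin of late endosomes and lysosomes, was the highest in both batches, with 2347 ± 64.6 FPKM in DMSO cells of batch 1 and 1910 ± 72.7 FPKM in those of batch 2 (SD, n = 3). The protease Ctsd (255 ± 20.7 and 197 ± 8.01 FPKM) and the membrane protein Lamp1 (223 ± 1.19 and 185 ± 8.27 FPKM) came next, and their libraries overlapped in batch 2 but not in batch 1. Ctsz, Psap and Ctsl followed in both batches. Ctsk and Manba were the lowest in batch 1, at 0.277 ± 0.278 and 0.296 ± 0.212 FPKM, and Manba in batch 2, at 0.510 ± 0.132 FPKM. The FPKM of all members summed to 4906 ± 274 with adenosine and 3734 ± 56.8 with DMSO in batch 1, and to 4165 ± 143 with adenosine and 3765 ± 172 with AMP, against 3030 ± 64.7 with DMSO in batch 2. Cd63 made up 61.4% to 65.0% of that sum. Without it the sums were 1830 ± 41.0 with adenosine and 1387 ± 58.6 with DMSO in batch 1, and 1517 ± 29.0 with adenosine and 1354 ± 91.5 with AMP, against 1120 ± 8.17 with DMSO in batch 2.

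The promoters of the members were searched for the E-box CACGTG and for TCACGTG, the form within the CLEAR element that TFEB binds, on both strands. Every TCACGTG holds a CACGTG. The windows ran from 250 bases before to 50 bases after each gene start, as RefSeq gives it on GRCm38.p6, and 37 of the 43 members had an entry; Ctsb, Ctsh, Galns, Asah1, Npc1 and Atp6v1h did not. CACGTG stood in the windows of 15 of the 37 members (40.5%), of 8.09% of all 27025 genes with a window and of 12.2% of the 9150 such genes tested in batch 2. TCACGTG stood in 13 of 37 members (35.1%), in 4.29% of all genes and in 7.41% of those tested in batch 2. Among members with a window, CACGTG was found for 11 of 22 that rose with 0.1 mM adenosine, 3 of 7 that fell and 1 of 7 not called. TCACGTG was found for 9 of 22, 3 of 7 and 1 of 7. With 0.05 mM adenosine, CACGTG was found for 9 of 20 that rose, 1 of 1 that fell and 5 of 15 not called. TCACGTG was found there for 7 of 20, 1 of 1 and 5 of 15. Over all genes with a window, CACGTG was found for 13.5% of those that rose with 0.1 mM adenosine, 11.4% that fell and 11.6% not called. For TCACGTG these shares were 9.08%, 5.98% and 7.28%. The median log2 fold change with 0.1 mM adenosine was 0.56 for the 15 members with CACGTG and 0.43 for the 21 tested members without it. For TCACGTG the medians were 0.55 for the 13 members with it and 0.46 for the 23 without. Neu1 and Cd68, among the members with the largest rises, had no CACGTG in the window, which says only that these letters are not there. The stretches below show the motif in 4 members that rose with each treatment (Lamp1, Gla, Ctsl and Ctsf), in 1 that fell with each (Glb1), in 1 that fell in batch 2 (Sgsh) and in 1 that was not called (Gaa). Each is written 5′ to 3′ on the gene's strand, with CACGTG in capitals.
Lamp1: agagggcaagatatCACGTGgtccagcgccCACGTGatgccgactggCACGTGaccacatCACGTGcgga
Gla: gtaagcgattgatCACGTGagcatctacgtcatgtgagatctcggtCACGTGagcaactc
Ctsl: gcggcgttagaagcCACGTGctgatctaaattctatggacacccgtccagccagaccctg
Ctsf: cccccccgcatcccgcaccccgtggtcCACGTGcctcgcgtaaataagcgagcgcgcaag
Glb1: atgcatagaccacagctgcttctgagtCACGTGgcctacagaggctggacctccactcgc
Sgsh: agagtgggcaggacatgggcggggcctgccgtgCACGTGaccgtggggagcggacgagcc
Gaa: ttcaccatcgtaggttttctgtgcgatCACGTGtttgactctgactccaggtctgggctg
On GRCm38.p6 these are chr8:13159086-13159155 (plus strand), chrX:134601186-134601245 (minus), chr13:64370711-64370770 (minus), chr19:4855059-4855118 (plus), chr9:114401003-114401062 (plus), chr11:119355513-119355572 (minus) and chr11:119267796-119267855 (plus). Lamp1 held 4 copies within 70 bases and Gla 2 within 60, while the other 5 stretches held 1 copy each. Ctsl and Ctsf held no TCACGTG on either strand, while Lamp1, Gla, Glb1, Sgsh and Gaa did. A match is a description of the sequence and not a bound site.

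Among the proteases, 6 of the 8 tested rose with 0.05 mM adenosine and none fell, 6 rose and 1 fell with 0.1 mM adenosine, and 7 rose and none fell with AMP. The shares of all genes that rose and fell were 19.6% and 19.5% with 0.05 mM adenosine. They were 34.9% and 34.5% with 0.1 mM adenosine, and 33.7% and 31.8% with AMP. Ctsf, a cysteine protease (chr19:4855129-4860912, plus strand, GRCm38), had 7.05, 6.70 and 4.91 FPKM with adenosine and 2.96, 4.01 and 3.08 FPKM with DMSO in batch 1. In batch 2 it had 5.24, 6.88 and 5.30 FPKM with adenosine and 4.66, 6.06 and 5.16 FPKM with AMP, against 0.984, 1.42 and 1.93 FPKM with DMSO. Every treated library lay above every DMSO library of its batch, and the separation was wider in batch 2. Its log2 fold change was 0.90 ± 0.26 (SE; adjusted p = 0.0143) with 0.05 mM adenosine, 2.01 ± 0.24 (adjusted p = 1.91e-06) with 0.1 mM adenosine and 1.89 ± 0.24 (adjusted p = 5.36e-06) with AMP.

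Ctsl, a cysteine endopeptidase (chr13:64363214-64370306, minus strand), had 140, 140 and 137 FPKM with adenosine and 88.1, 100 and 75.4 FPKM with DMSO in batch 1. It had 135, 126 and 147 FPKM with adenosine and 90.4, 96.0 and 90.7 FPKM with AMP, against 64.6, 65.6 and 67.1 FPKM with DMSO in batch 2. The groups of each batch did not overlap, and the AMP libraries lay between those of adenosine and DMSO. Its log2 fold changes were 0.67 ± 0.12 (SE; adjusted p = 0.001004) and 1.04 ± 0.07 (adjusted p = 5.77e-09) with the lower and higher adenosine dose and 0.49 ± 0.07 (adjusted p = 2.18e-05) with AMP.

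Ctsz, a carboxypeptidase, fell with 0.1 mM adenosine and was not called with the other treatments. It had 178, 195 and 207 FPKM with adenosine and 203, 173 and 188 FPKM with DMSO in batch 1. It had 106, 118 and 106 FPKM with adenosine and 132, 132 and 114 FPKM with AMP, against 137, 135 and 137 FPKM with DMSO in batch 2. The batch 1 groups overlapped, while both treated groups of batch 2 lay below DMSO in FPKM. In CPM the AMP libraries had 194.6, 200.9 and 183.9, above the 178.9, 169.7 and 173.5 of the DMSO libraries, so that the direction with AMP turned with the scaling. The log2 fold change with 0.1 mM adenosine was -0.32 ± 0.08 (SE; adjusted p = 0.00157), and with libraries scaled by their totals it was -0.01 and not called.

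Of the other proteases, Tpp1, a tripeptidyl peptidase, had log2 fold changes of 0.60, 1.21 and 1.07 with 0.05 mM adenosine, 0.1 mM adenosine and AMP. Ctsa, the serine carboxypeptidase that also holds Neu1 and Glb1 in a complex, had 0.71, 1.00 and 0.83. The abundant endopeptidases Ctsd (0.33, 0.56 and 0.43) and Ctsb (0.46, 0.41 and 0.34) rose less. Exons of Ctsb share 767 bases with those of Fdft1 on the opposite strand, and since Smart-seq2 does not keep strand, reads there cannot be told apart; Fdft1 fell by 0.60 with 0.1 mM adenosine and by 0.70 with AMP on the log2 scale. Ctsd shares 163 exon bases with Ifitm10, which fell in each comparison. Ctsh, an aminopeptidase at 0.654 ± 0.154 FPKM in DMSO cells of batch 2, rose with AMP (0.80, adjusted p = 0.0125). Its log2 fold changes with adenosine, -0.67 at 0.05 mM and 0.47 at 0.1 mM, were not called. The call of Ctsd in batch 1 ended in 8 of 12 alternatives, that of Ctsf in batch 1 in 3 of 11 and that of Ctsh with AMP in 1 of 14.

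Glycosidases moved both ways, with 5 higher and 1 lower of 11 with 0.05 mM adenosine and 5 higher and 3 lower with each treatment of batch 2. All genes also moved both ways, with 19.6% higher and 19.5% lower with 0.05 mM adenosine. The shares were 34.9% and 34.5% with 0.1 mM adenosine, and 33.7% and 31.8% with AMP. Neu1, the sialidase that removes sialic acid from glycans (chr17:34931253-34935953, plus strand), had 14.5, 9.48 and 8.80 FPKM with adenosine and 3.83, 4.97 and 4.26 FPKM with DMSO in batch 1. In batch 2 it had 10.4, 10.1 and 11.8 FPKM with adenosine and 7.82, 7.13 and 8.84 FPKM with AMP, against 2.604, 1.77 and 1.72 FPKM with DMSO. Every treated library lay above every DMSO library of its batch, AMP libraries lay between those of adenosine and DMSO, and replicate 1 was the highest of the batch 1 adenosine libraries. Its log2 fold change was 1.34 ± 0.21 (SE; adjusted p = 3.52e-04), 2.38 ± 0.16 (adjusted p = 3.69e-09) and 1.95 ± 0.16 (adjusted p = 4.97e-08) with 0.05 mM adenosine, 0.1 mM adenosine and AMP, which at 0.1 mM adenosine is a 5.22-fold higher level (95% interval 4.13 to 6.59).

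Glb1, the beta-galactosidase that cuts galactose from gangliosides and keratan sulfate (chr9:114401076-114474376, plus strand), fell in each comparison. It had 3.95, 3.67 and 3.24 FPKM with adenosine and 7.33, 9.50 and 9.05 FPKM with DMSO in batch 1. It had 2.44, 2.66 and 2.14 FPKM with adenosine and 2.09, 2.69 and 1.52 FPKM with AMP, against 9.25, 9.49 and 7.50 FPKM with DMSO in batch 2. All treated libraries lay below all DMSO libraries of their batch, and the adenosine and AMP libraries overlapped. Its log2 fold changes were -1.24 ± 0.21 (SE; adjusted p = 5.74e-04), -1.86 ± 0.20 (adjusted p = 5.84e-07) and -2.06 ± 0.20 (adjusted p = 3.51e-07) with 0.05 mM adenosine, 0.1 mM adenosine and AMP. These calls passed in each alternative run, with log2 fold changes of -1.36 to -1.05, -1.96 to -1.51 and -2.28 to -1.66. Glb1 shares 175 exon bases with Tmppe on the same strand, where reads cannot be told apart, and over the 6 libraries of batch 1 Glb1 had 1442 counts and Tmppe 1927. The log2 fold changes of Tmppe were 0.61, 0.30 and 0.07, of which the first was called. As background, the proteins of Ctsa, Neu1 and Glb1 form 1 complex in the lysosome, in which Ctsa stabilises the other two.

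Gusb, the beta-glucuronidase, had 22.5, 24.1 and 22.4 FPKM with adenosine and 26.0, 25.9 and 24.6 FPKM with DMSO in batch 1. It had 13.4, 15.6 and 16.0 FPKM with adenosine and 14.4, 16.7 and 15.2 FPKM with AMP, against 21.8, 19.2 and 20.7 FPKM with DMSO in batch 2. Treated libraries lay below DMSO libraries in FPKM in both batches, and the batch 1 difference was not called. In CPM the groups overlapped in both batches, at 109.0, 119.3 and 111.9 with adenosine and 111.9, 112.7 and 103.3 with DMSO in batch 1. Gusb fell by 0.47 with 0.1 mM adenosine (adjusted p = 2.78e-04) and by 0.41 with AMP (adjusted p = 9.04e-04) on the log2 scale, and both calls ended with libraries scaled by their totals.

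Fuca1, the alpha-fucosidase, had 17.6, 10.96 and 11.2 FPKM with adenosine and 16.4, 14.9 and 17.4 FPKM with DMSO in batch 1, where the groups overlapped through adenosine replicate 1. It had 6.00, 7.51 and 7.47 FPKM with adenosine and 8.33, 7.43 and 7.59 FPKM with AMP, against 10.99, 10.4 and 10.49 FPKM with DMSO in batch 2, where both treated groups lay below DMSO. It fell by 0.61 (adjusted p = 2.17e-04) with 0.1 mM adenosine and by 0.45 (adjusted p = 0.00302) with AMP on the log2 scale, and the AMP call ended with libraries scaled by their totals. Its batch 1 log2 fold change of -0.28 was not called, but without adenosine replicate 1 it was -0.56 and called (adjusted p = 0.0128).

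Of the glycosidases that rose, Gla, which removes galactose from globotriaosylceramide, had log2 fold changes of 1.02, 0.84 and 0.57. Naglu, an enzyme of heparan sulfate breakdown, had 0.88, 0.78 and 0.71. Man2b1, the alpha-mannosidase, had 0.72, 0.78 and 0.49, and Hexa, the alpha subunit of hexosaminidase, had 0.56, 0.53 and 0.57. Gaa, which breaks down lysosomal glycogen, Idua, an enzyme of heparan and dermatan sulfate breakdown, and Manba, the beta-mannosidase, were not called in any comparison with DMSO, but Idua passed with AMP on library totals (0.65, adjusted p = 0.0197) and Manba in batch 1 without DMSO replicate 1 (1.54, adjusted p = 0.0390). Naglu and Man2b1 lost their batch 1 calls in 2 of 12 alternatives each, and Gla its AMP call in 2 of 14.

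Of the 5 sulfatases, 2 rose and 2 fell with each treatment of batch 2, and none was called in batch 1. These counts lay near the shares of all genes in batch 2. Those were 34.9% higher and 34.5% lower with 0.1 mM adenosine, and 33.7% and 31.8% with AMP. Ids, which removes sulfate from iduronic acid, had 3.24, 3.02 and 3.35 FPKM with adenosine and 2.03, 3.11 and 2.91 FPKM with DMSO in batch 1, with overlap. It had 6.63, 6.84 and 6.54 FPKM with adenosine and 6.86, 6.92 and 6.03 FPKM with AMP, against 4.10, 3.91 and 4.32 FPKM with DMSO in batch 2. Both treated groups of batch 2 stood clear above DMSO, at log2 fold changes of 0.69 ± 0.11 (SE; adjusted p = 3.20e-05) with adenosine and 0.69 ± 0.11 (adjusted p = 4.47e-05) with AMP.

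Arsb, which removes sulfate from dermatan and chondroitin sulfate, moved the other way. It had 1.22, 1.51 and 0.932 FPKM with adenosine and 1.61, 2.09 and 2.10 FPKM with DMSO in batch 1. It had 1.52, 1.37 and 1.51 FPKM with adenosine and 1.63, 2.18 and 0.801 FPKM with AMP, against 2.85, 4.27 and 3.93 FPKM with DMSO in batch 2. Treated libraries lay below DMSO libraries in FPKM in both batches, and the AMP libraries were spread widely. Its log2 fold changes were -1.33 ± 0.27 (SE; adjusted p = 3.94e-04) with 0.1 mM adenosine and -1.26 ± 0.27 (adjusted p = 7.37e-04) with AMP, and -0.65 ± 0.30 (adjusted p = 0.104, not called) in batch 1.

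Arsa, the sulfatase of sulfatide, rose in batch 2 with log2 fold changes of 0.39 with adenosine and 0.67 with AMP. Sgsh, a sulfatase of heparan sulfate at about 1.02 FPKM in DMSO cells, fell by 0.65 and 0.72 on the log2 scale. The adenosine calls of Sgsh and Arsa ended in 10 of 14 and 4 of 15 alternatives, and the AMP call of Sgsh in 5 of 14. On the opposite strand, exons of Arsb share 1948 bases with Gm26527, those of Sgsh 955 bases with Card14 and those of Arsa 690 bases with C230037L18Rik, genes with 0, 30 and 26 counts over batch 1. Galns, which acts on keratan sulfate, was not called in any comparison with DMSO.

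Of the 6 genes of lipid handling, 1 rose with 0.05 mM adenosine, 1 rose and 1 fell with 0.1 mM adenosine, and 2 fell with AMP. Among all genes, 19.6% rose and 19.5% fell with 0.05 mM adenosine. The shares were 34.9% and 34.5% with 0.1 mM adenosine, and 33.7% and 31.8% with AMP. Asah1, the acid ceramidase, had 28.8, 43.4 and 34.6 FPKM with adenosine and 53.3, 47.2 and 36.3 FPKM with DMSO in batch 1, with overlap. It had 32.1, 35.2 and 32.9 FPKM with adenosine and 36.5, 35.5 and 28.1 FPKM with AMP, against 55.8, 49.8 and 53.2 FPKM with DMSO in batch 2. The treated groups of batch 2 overlapped each other and lay below DMSO, at log2 fold changes of -0.67 ± 0.09 (SE; adjusted p = 1.02e-05) with adenosine and -0.67 ± 0.09 (adjusted p = 1.46e-05) with AMP. The batch 1 difference, not called, passed as a fall in 3 of 12 alternatives, which were no filter and the omission of DMSO replicate 3 or adenosine replicate 2.

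Smpd1, the acid sphingomyelinase, had 13.8, 9.20 and 12.3 FPKM with adenosine and 12.2, 11.8 and 8.68 FPKM with DMSO in batch 1. It had 11.1, 9.77 and 9.90 FPKM with adenosine and 7.60, 8.54 and 7.57 FPKM with AMP, against 6.61, 8.48 and 7.71 FPKM with DMSO in batch 2. In FPKM only the 0.1 mM adenosine libraries stood above their DMSO libraries. The log2 fold change there was 0.43 ± 0.13 (SE), with adjusted p = 0.00782, and on library totals Smpd1 was called higher with AMP too (0.33, adjusted p = 0.0377).

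Psap, the precursor of the saposins that present sphingolipids to their hydrolases, rose in batch 1 and was not called in batch 2. It had 152, 141 and 126 FPKM with adenosine and 94.1, 94.1 and 89.5 FPKM with DMSO in batch 1. It had 74.0, 80.2 and 77.2 FPKM with adenosine and 77.3, 79.4 and 59.6 FPKM with AMP, against 66.7, 73.8 and 66.2 FPKM with DMSO in batch 2. The batch 1 groups were well apart, the 0.1 mM adenosine libraries lay just above DMSO, and the AMP libraries overlapped it. The log2 fold changes were 0.60 ± 0.11 (SE; adjusted p = 0.00102), 0.16 ± 0.09 (adjusted p = 0.154) and 0.07 ± 0.10 (adjusted p = 0.542). Psap was called higher in batch 2 on library totals, at 0.47 with adenosine (adjusted p = 1.79e-04) and 0.33 with AMP (adjusted p = 0.00390), and in both comparisons without AMP replicate 3. With adenosine it was also called at a mean of at least 10 CPM (0.23, adjusted p = 0.0454).

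Lipa, the acid lipase, fell with AMP (-0.37, adjusted p = 0.0423), a call that ended in 7 of 15 alternatives. The cholesterol exporters Npc1 and Npc2 were not called in any comparison with DMSO. On library totals Npc2 was called higher in all 3, at 0.50 with 0.05 mM adenosine (adjusted p = 0.0109), 0.43 with 0.1 mM adenosine (adjusted p = 7.07e-04) and 0.29 with AMP (adjusted p = 0.0150), and Npc1 with 0.1 mM adenosine, at 0.53 (adjusted p = 9.71e-04).

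All 6 genes of the group of membrane proteins and progranulin rose in each comparison with DMSO, where 19.6%, 34.9% and 33.7% of all genes rose. The median log2 fold change of the group was 0.78 with 0.05 mM adenosine, 1.07 with 0.1 mM adenosine and 0.78 with AMP. Cd68, a heavily glycosylated lysosomal membrane protein best known from macrophages (chr11:69664213-69666153, minus strand), had 11.03, 8.12 and 9.17 FPKM with adenosine and 1.82, 0.885 and 2.02 FPKM with DMSO in batch 1. In batch 2 it had 8.17, 8.20 and 9.49 FPKM with adenosine and 9.49, 8.12 and 9.99 FPKM with AMP, against 2.72, 1.43 and 2.52 FPKM with DMSO. Each treated library lay far above each DMSO library of its batch, and the AMP and adenosine libraries of batch 2 overlapped. The log2 fold change was 2.58 ± 0.34 (SE; adjusted p = 9.92e-05), 1.92 ± 0.22 (adjusted p = 1.58e-06) and 2.03 ± 0.22 (adjusted p = 1.18e-06), that is 5.98-, 3.79- and 4.07-fold, with 95% intervals of 3.58 to 9.99, 2.73 to 5.26 and 2.93 to 5.66.

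Leukocyte and macrophage markers were read in the same libraries. In batch 1 the summed level of 16 leukocyte and macrophage markers was 3.25 to 7.37 FPKM with adenosine and 3.17 to 4.40 FPKM with DMSO, Cd14 made up most of it, and Tyrobp and C1qa were at 0 counts in all 6 libraries. Ptprc, which encodes CD45, had 0.0628, 0.00934 and 0.0206 FPKM with adenosine and 0, 0 and 0.00365 FPKM with DMSO. Adgre1, which encodes F4/80, had 0.0394, 0.0176 and 0 FPKM with adenosine and 0 in all 3 DMSO libraries. Lyz2, which encodes lysozyme, had 0.555, 0.0450 and 0 FPKM with adenosine and 0, 0.110 and 0 FPKM with DMSO. Itgam was also highest in adenosine replicate 1, Cx3cr1 and Aif1 were highest in adenosine replicate 2, and Csf1r, Mrc1 and Cd163 in adenosine replicate 3. Only 2 of the 16 were tested in batch 1, and 0 rose and 0 fell. The other 14 did not pass the filter on low counts there, so their order among libraries rests on few reads. In batch 2 only Cd14 and Csf1r of the 16 were in the table, summing to 1.05 to 1.77 FPKM with adenosine and 1.43 to 3.18 FPKM with AMP, against 0.889 to 1.19 FPKM with DMSO. Of these Csf1r, a receptor of macrophages, rose (edgeR, adjusted p = 1.57e-04 with adenosine and adjusted p = 4.48e-05 with AMP), at 0.319 ± 0.117 FPKM with adenosine and 0.423 ± 0.125 FPKM with AMP, against 0.0351 ± 0.0137 FPKM with DMSO (SD, n = 3). The part of these markers in the rise of Cd68 was not tested.

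Cd63 had 3071, 3320.5 and 2838 FPKM with adenosine and 2274, 2369 and 2397 FPKM with DMSO in batch 1. It had 2557, 2612 and 2777 FPKM with adenosine and 2520.0, 2391 and 2322 FPKM with AMP, against 1974, 1831 and 1923 FPKM with DMSO in batch 2. The treated groups lay above DMSO in both batches and AMP libraries lay below adenosine libraries, with log2 fold changes of 0.40 ± 0.10 (SE; adjusted p = 0.00883), 0.46 ± 0.07 (adjusted p = 3.48e-05) and 0.34 ± 0.07 (adjusted p = 7.26e-04). The batch 1 call ended in limma on the FPKM values (adjusted p = 0.359) and without adenosine replicate 2.

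Cln3, whose loss causes a juvenile lysosomal storage disease, had log2 fold changes of 0.95, 1.27 and 0.88 with 0.05 mM adenosine, 0.1 mM adenosine and AMP. Grn, the gene of progranulin, which is cut into granulins within lysosomes, had 0.56, 1.21 and 0.96. Lamp2, which also serves as a receptor in chaperone-mediated autophagy, had 1.07, 0.93 and 0.68. Lamp1, the most abundant lysosomal membrane glycoprotein with Lamp2, had 0.60, 0.55 and 0.37. These 4 genes kept their calls in each alternative run.

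**Figure D2:**
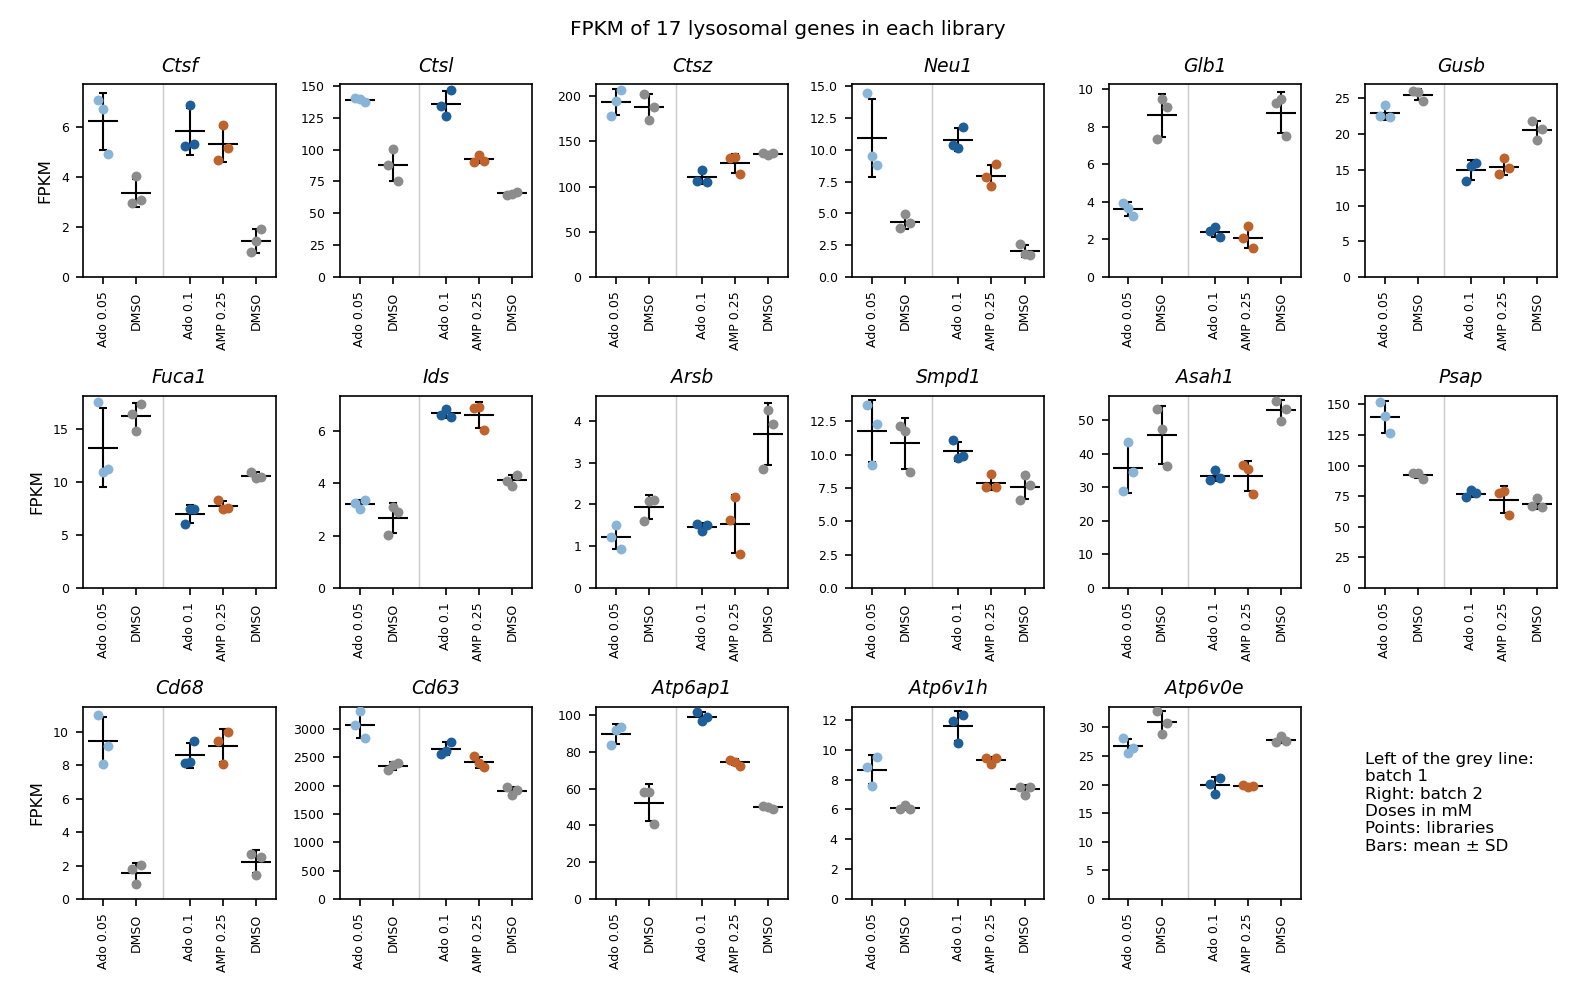
FPKM (y axis, from 0) of 17 lysosomal genes in each library, with points for libraries and bars for the mean ± SD of 3. Groups from left to right are adenosine 0.05 mM and DMSO of batch 1, then adenosine 0.1 mM, AMP 0.25 mM and DMSO of batch 2. Cd68 and Neu1 stand above their DMSO groups and Glb1 below them, while Ctsz, Fuca1 and Smpd1 of batch 1 overlap.

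Of the 6 proton pump genes, 4 rose in each comparison with DMSO and 1 fell with each treatment of batch 2. Among all genes, 19.6% rose and 19.5% fell with 0.05 mM adenosine. The shares were 34.9% and 34.5% with 0.1 mM adenosine, and 33.7% and 31.8% with AMP. Atp6ap1, an accessory subunit needed to assemble the membrane sector, had 83.7, 92.1 and 93.5 FPKM with adenosine and 58.1, 58.2 and 40.8 FPKM with DMSO in batch 1. It had 102, 97.0 and 98.97 FPKM with adenosine and 75.7, 74.7 and 72.5 FPKM with AMP, against 50.6, 50.1 and 48.7 FPKM with DMSO in batch 2. The 3 groups of batch 2 were fully separate, with AMP in the middle. Its log2 fold changes were 0.79 ± 0.14 (SE; adjusted p = 9.41e-04), 0.99 ± 0.06 (adjusted p = 2.91e-09) and 0.58 ± 0.06 (adjusted p = 1.18e-06).

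Atp6v1h, the subunit that restrains the free cytosolic sector, had 8.86, 7.58 and 9.49 FPKM with adenosine and 6.03, 6.29 and 6.03 FPKM with DMSO in batch 1. It had 11.9, 10.46 and 12.4 FPKM with adenosine and 9.47, 9.06 and 9.44 FPKM with AMP, against 7.53, 6.97 and 7.52 FPKM with DMSO in batch 2. Again all groups were apart and AMP lay in the middle, at log2 fold changes of 0.51 ± 0.13 (SE; adjusted p = 0.00781), 0.65 ± 0.08 (adjusted p = 2.89e-06) and 0.35 ± 0.08 (adjusted p = 0.00135).

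Atp6v0e, a small subunit of the membrane sector, was the member of the pump that fell. It had 28.2, 25.5 and 26.3 FPKM with adenosine and 32.9, 28.9 and 30.8 FPKM with DMSO in batch 1. It had 20.2, 18.4 and 21.1 FPKM with adenosine and 19.98, 19.6 and 19.8 FPKM with AMP, against 27.4, 28.4 and 27.7 FPKM with DMSO in batch 2. Treated libraries lay below DMSO in FPKM in both batches, but the batch 1 log2 fold change of -0.20 was not called. In batch 2 it fell by 0.49 with adenosine (adjusted p = 3.29e-05) and by 0.49 with AMP (adjusted p = 4.50e-05) on the log2 scale, and the adenosine call ended with libraries scaled by their totals.

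Atp6v0d1, which joins the membrane sector to the rotor stalk, had log2 fold changes of 0.51, 0.86 and 0.67, and its batch 1 call ended in 3 of 12 alternatives. Atp6v1a, the catalytic subunit, rose in batch 2, with 0.39 with adenosine and 0.42 with AMP, and was not called in batch 1. Atp6ap2, an accessory subunit also called the prorenin receptor, rose with 0.05 mM adenosine (0.48, adjusted p = 0.00511) and was not called with 0.1 mM (0.19, adjusted p = 0.0693) or with AMP. Its 0.1 mM value passed in 5 of 15 alternatives, at 0.50 on library totals (adjusted p = 8.10e-05), 0.27 at a mean of at least 10 CPM, 0.19 with the replicate block (adjusted p = 0.0301) and 0.19 without AMP replicate 2 or 3, and its AMP value passed on library totals (0.24, adjusted p = 0.0272). Of 13 further pump subunits, 10 rose and 1 fell with 0.05 mM adenosine, 10 rose and 2 fell with 0.1 mM adenosine, and 9 rose and 2 fell with AMP. Their median log2 fold changes were 0.62, 0.84 and 0.71. The shares of all genes that rose and fell were 19.6% and 19.5% with 0.05 mM adenosine. They were 34.9% and 34.5% with 0.1 mM adenosine, and 33.7% and 31.8% with AMP. Atp6v1g2, a subunit of the peripheral stalk, had 2.38, 1.79 and 1.49, and Atp6v1d, of the central stalk, had 0.78, 1.41 and 1.21. The subunits that fell in batch 2 were alternative forms of the large subunit of the membrane sector, Tcirg1 (-0.74 with adenosine and -0.37 with AMP) and Atp6v0a2 (-0.32 and -0.38). Tcirg1 also fell in batch 1, by 0.84.

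**Figure D3:**
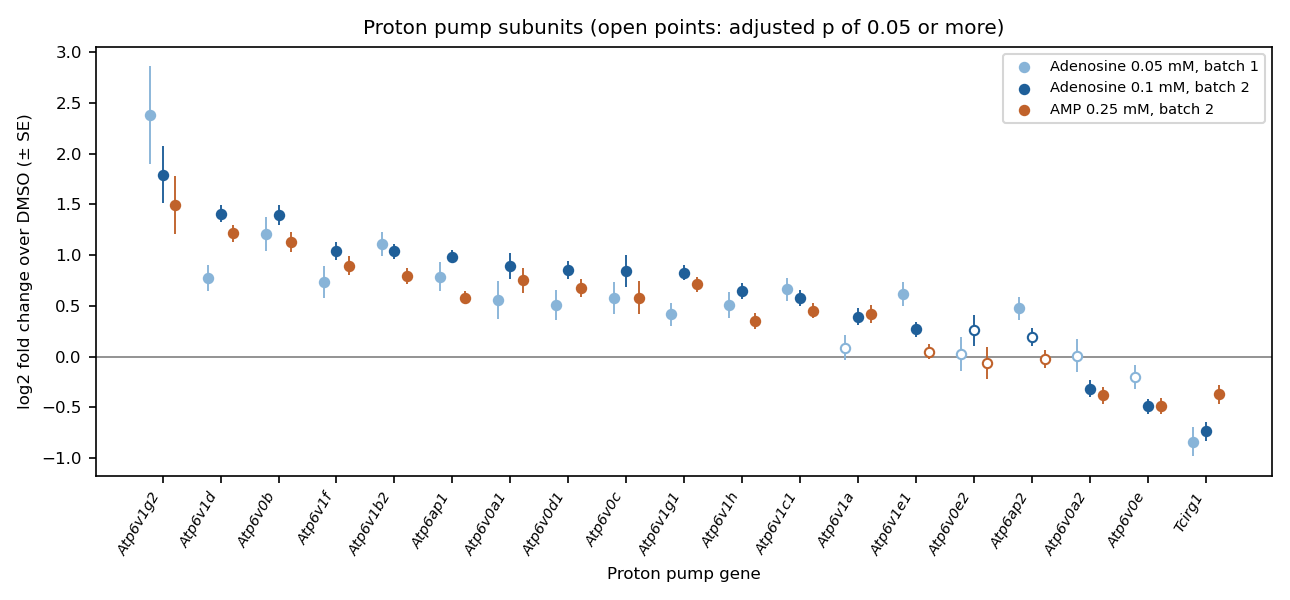
Log2 fold changes over DMSO (y axis, ± SE) of the 6 proton pump members and 13 further subunits (x axis), for 0.05 mM adenosine, 0.1 mM adenosine and 0.25 mM AMP. Filled points passed an adjusted p of 0.05. Most subunits lie above 0 with each treatment, and Tcirg1, Atp6v0e and Atp6v0a2 lie at the right, below 0 in batch 2.

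AMP at 0.25 mM and adenosine at 0.1 mM were compared with each other in batch 2 at these unequal doses, and they share the same 3 DMSO libraries in the comparisons above. None of the 42 members was higher with AMP and 3 were lower (edgeR), against 4.52% and 2% of all 13063 genes (6.51% in either direction). At an unadjusted p under 0.05, 1 member was higher and 13 were lower, against 11.97% and 8.31% of all genes. DESeq2 called 0 members higher and 6 lower (5.24% and 2.86% of all genes), and limma on the FPKM values 0 and 2 (2.88% and 1.67%). Ctsl was lower with AMP by 0.55 on the log2 scale (adjusted p = 2.65e-04; 95% interval -0.70 to -0.40), Atp6ap1 by 0.41 (adjusted p = 0.00108; -0.54 to -0.27) and Atp6v1h by 0.30 (adjusted p = 0.0311; -0.47 to -0.13). The AMP libraries of these 3 genes lay below all adenosine libraries, and over all members this held for 14, while 2 lay above, where 11.7% and 12.1% of all genes did so. The call of Atp6v1h ended in 6 of 15 alternatives.

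For members not called between AMP and adenosine, the interval of the difference shows what size remains possible. For Glb1 it ran from -0.66 to 0.26 on the log2 scale and for Cd68 from -0.30 to 0.51. Of the 39 uncalled members, 10 had an interval below 0 and 1, Ctsz (0.04 to 0.37), had one above 0. Those below 0 were Neu1 (-0.73 to -0.13; edgeR adjusted p = 0.0834), Grn (-0.41 to -0.09; adjusted p = 0.0610) and Lamp2 (-0.41 to -0.08; adjusted p = 0.0714), each of which passed in 3 of 15 alternatives, and Man2b1, Smpd1, Lipa, Lamp1, Cln3, Atp6ap2 and Atp6v0d1. For Ctsf the interval ran from -0.56 to 0.31, and for Cd63 from -0.28 to 0.03. The median difference over the 42 members was -0.13 and 29 of the 42 lay below 0, while the median of all genes was -0.0027 and 50.5% of them lay below 0. Without AMP replicate 3 the median of the members was -0.0367.

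**Figure D4:**
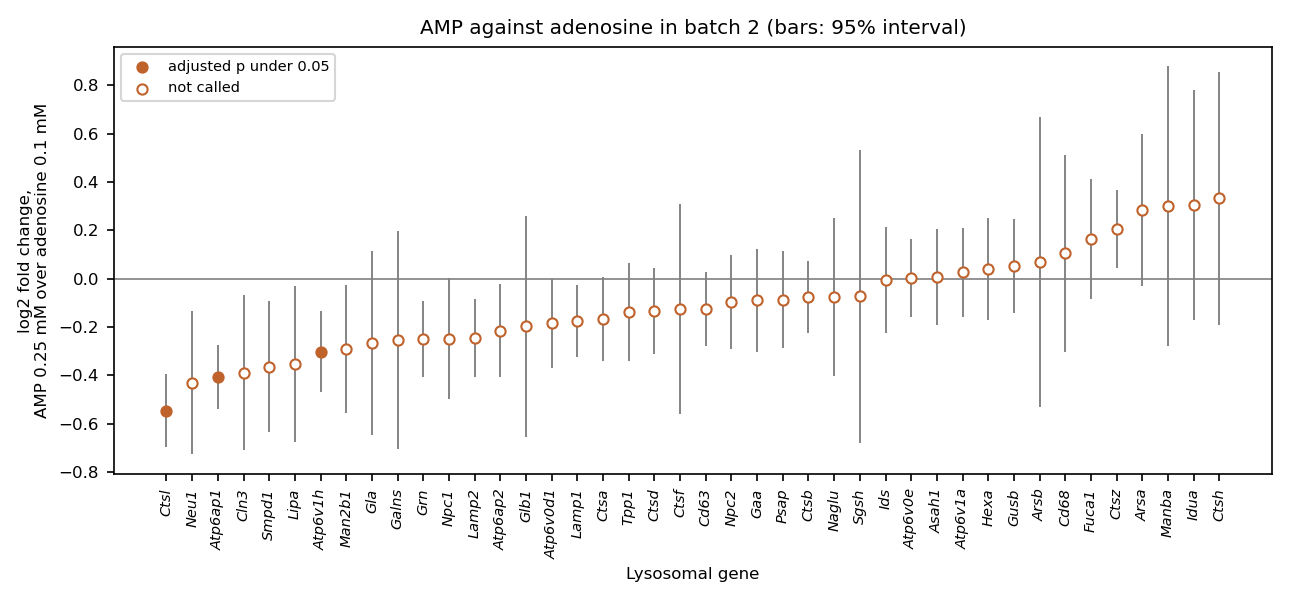
Log2 fold change of 0.25 mM AMP over 0.1 mM adenosine in batch 2 (y axis, bars for the 95% interval) of the 42 tested lysosomal genes (x axis), in ascending order. Ctsl, Atp6ap1 and Atp6v1h (filled) passed an adjusted p of 0.05, and the intervals of most other genes include 0.

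The adenosine effect of batch 2 (0.1 mM) and that of batch 1 (0.05 mM) were compared by the difference of their log2 fold changes. The difference was positive and called for 4 members and negative and called for 1, against 6.27% and 5.65% of all 13057 genes (11.9% in either direction). The genes with the larger rise in batch 2 were Ctsf (1.11 ± 0.35, SE; adjusted p = 0.0428), Neu1 (1.05 ± 0.27; adjusted p = 0.0177), Grn (0.65 ± 0.15; adjusted p = 0.00890) and Tpp1 (0.61 ± 0.15; adjusted p = 0.0126). Psap had the smaller rise in batch 2 (-0.44 ± 0.14; adjusted p = 0.0499). DMSO cells of batch 2 had lower Neu1 and Ctsf levels, 2.03 ± 0.495 and 1.44 ± 0.472 FPKM, than DMSO cells of batch 1, with 4.36 ± 0.579 and 3.35 ± 0.577 FPKM. The levels in adenosine cells of batch 2 were 10.8 ± 0.914 and 5.81 ± 0.931 FPKM, beside 10.9 ± 3.10 and 6.22 ± 1.15 FPKM in those of batch 1, tables that the authors normalized separately. The call of Ctsf ended in 10 of 19 alternatives, that of Psap in 14 of 20 and that of Neu1 in 2 of 20, while Grn and Tpp1 kept theirs in all 20.

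Outside the 43 members, 95 further genes of the lysosomal pathway were listed by role. Of those tested, 34 of 91 rose and 7 fell with 0.05 mM adenosine, 52 of 89 rose and 16 fell with 0.1 mM adenosine, and 48 of 89 rose and 16 fell with AMP, beside the shares of all genes given above. Of 25 other hydrolases and cofactors tested in batch 2, 15 rose and 4 fell with 0.1 mM adenosine, and 13 rose and 5 fell with AMP. Dnase2a, which degrades DNA in lysosomes, had log2 fold changes of 2.05, 2.09 and 1.45 with 0.05 mM adenosine, 0.1 mM adenosine and AMP. Of the hyaluronidases, Hyal1 rose (1.93 with 0.1 mM adenosine and 1.95 with AMP) and Hyal2 fell (-0.82 and -0.54), as did the carboxypeptidase Prcp (-0.87 and -1.03).

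Of 21 other membrane proteins and transporters, 15 rose and 2 fell with 0.1 mM adenosine, and 13 rose and 2 fell with AMP. Among all genes, 34.9% rose and 34.5% fell with 0.1 mM adenosine, and 33.7% and 31.8% with AMP. Ctns, the cystine exporter, had log2 fold changes of 1.54, 2.34 and 2.08. Slc36a1, an amino acid transporter, had 1.32 with 0.1 mM adenosine and 1.39 with AMP. Scarb2, the receptor that carries glucocerebrosidase to lysosomes, fell in each comparison (-0.57, -0.76 and -0.62), and so did Tmem63a, an ion channel (-0.44, -0.71 and -0.81).

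Of the 12 genes of mannose 6-phosphate tagging and sorting, 4 were higher and 4 lower with 0.1 mM adenosine and 4 higher and 5 lower with AMP, shares near the 34.9% and 34.5% and the 33.7% and 31.8% of all genes. Igf2r, the large mannose 6-phosphate receptor, fell in each comparison (-0.60, -0.85 and -0.69), and Gnptab, which makes the tag, fell in batch 2 (-0.72 and -0.40). The coat adaptor Gga1 (0.74 and 0.74) and the retromer subunit Vps26a (0.63 and 0.54) rose in batch 2. Without single libraries of the AMP comparison, the count of sorting genes that fell ranged from 2 to 6; it was 2 without DMSO replicate 2 or AMP replicate 3 and 3 without AMP replicate 1.

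Of 15 genes of the MiT/TFE factors and the mTORC1 machinery at the lysosome, 6 rose and 3 fell with 0.1 mM adenosine and 7 rose and 2 fell with AMP. Over all genes, 34.9% rose and 34.5% fell with 0.1 mM adenosine, and 33.7% and 31.8% with AMP. Fnip1, which with folliculin acts on the Rag GTPases, had log2 fold changes of 1.14, 1.87 and 1.77, and the Rag GTPase Rragb had 1.30, 1.98 and 1.65. Fnip2 fell with both adenosine doses (-0.91 and -0.60), and Rragd fell with 0.1 mM adenosine and AMP (-0.46 and -0.51). Without DMSO replicate 3 of batch 2, 1 and not 3 genes of this list fell with 0.1 mM adenosine, and without AMP replicate 1, 1 and not 2 fell with AMP. The mRNA of the factors themselves, named here after their values were seen, had log2 fold changes of 0.15, 0.70 and 0.59 for Tfe3, of which the last 2 were called; the first passed on library totals (0.35, adjusted p = 0.0387). They were -1.18, -0.55 and -0.75 for Tfeb, none called. Tfeb passed as a fall in 4 of 11 alternatives in batch 1 (-1.22 with no filter, -1.217 with the replicate block, -1.45 without DMSO replicate 3 and -1.76 without adenosine replicate 1) and, with AMP, in 1 of 14 (-1.17 without DMSO replicate 2). They were 0.63, 1.02 and 1.30 for Mitf, of which the AMP value was called (adjusted p = 0.0217) and the 0.1 mM value passed on library totals (1.33, adjusted p = 0.0199). The Mitf call ended in limma and without DMSO replicate 1 or 2 or AMP replicate 1 or 2. Of the 3 cathepsin inhibitors tested, Cst3 rose in each comparison (0.65, 0.59 and 0.58), Cstb rose in batch 2 (0.59 and 0.37), and Cst6 fell with adenosine (-1.31 at 0.05 mM and -0.75 at 0.1 mM).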

How the data were processed

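Total RNA of 15 libraries was amplified by Smart-seq2 and fragmented with Tn5, per the labels' protocols. Reads were trimmed with Trim Galore, aligned with STAR to mm10 and counted with featureCounts of Subread, with DESeq2 also named, per the submitters' processing notes; the batch 1 file header gives featureCounts 1.6.4. The deposited counts are raw counts per gene. The batch 2 table had been filtered on low counts (smallest row total 101), and its 43 unnamed lines (0.0589% of counts) were left out. FPKM values are as the authors deposited them; in batch 1 they equal counts per length and total times a factor per library of 0.91 to 0.938 with adenosine and 1.05 to 1.08 with DMSO, while the making of batch 2 values is not given in the sources used here. For batch 1, a table the authors deposited also holds log2 fold changes, coded DMSO over adenosine, and adjusted p-values.

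Counts were tested with edgeR 4.0.16 in R 4.3.3 (TMM scaling, filterByExpr, quasi-likelihood F test, Benjamini-Hochberg over all genes, threshold 0.05), batch 1 and batch 2 separately, and all 15 libraries together for the difference of adenosine effects. Alternatives were library totals, DESeq2 1.42.0, no filter, a mean of at least 10 CPM, the replicate number as a block, limma 3.58.1 on log2(FPKM + 1) for the 4 comparisons within a batch, and leaving out each library. The script was tested on simulated data. Levels and overlap of libraries are in FPKM. The members and gene lists were chosen with earlier results of these data known. Per-library values are given for the members with the highest and lowest log2 fold change with 0.1 mM adenosine in each role, those called in opposite directions between comparisons or against most of their role; from other lists, for the 2 highest and 2 lowest called genes, fold changes are given. Gene coordinates are those of GENCODE vM21 (GRCm38).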

Additional observations from a re-analysis of the deposited data

Results flagged for a closer look

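The adenosine effect differed between the batches, by the test of the difference itself (edgeR, all 15 libraries), for 5 members and 6 other genes named above, each as the log2 fold change of batch 2 minus that of batch 1. Among the members the difference was 1.11 for Ctsf, 0.61 for Tpp1, 1.05 for Neu1, 0.65 for Grn and -0.44 for Psap. Among the other genes it was 1.595 for Hyal1, 0.80 for Ctns, 1.49 for Slc36a1, 0.64 for Atp6v1d, 0.74 for Fnip1 and 0.55 for Tfe3. These genes, apart from Tfe3, had been named for their high log2 fold changes with 0.1 mM adenosine, which favours a positive difference. Tfe3 was named after its values were seen. Of all 89 other lysosomal genes tested, 9 had a positive called difference and 0 a negative one, against 6.27% and 5.65% of all genes. Dose and batch changed together and cannot be told apart.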

How the results depend on the processing

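No called member changed sign in any of the 12 to 20 alternatives per comparison; the sign changed for 5 of 19 uncalled members with 0.05 mM adenosine, 4 of 10 with 0.1 mM adenosine, 9 of 10 with AMP, 11 of 39 for AMP over adenosine and 7 of 37 for the difference between batches, among them Psap with AMP (-0.007437 to 0.1905 when 1 library was left out, lowest without AMP replicate 2). Mitf, outside the members, ran from -0.05819 to 0.868 with 0.05 mM adenosine when 1 library was left out, lowest without adenosine replicate 2. The causes of the following changes were not tested, apart from the fewer genes or libraries that a filter or an omission leaves. Scaling by library totals gave medians of the members of 0.63 with 0.05 mM adenosine, 0.75 with 0.1 mM adenosine, 0.64 with AMP and 0.12 for the difference between batches. It left 4 members lower with each batch 2 treatment, 0 lower for the difference, 2891, 2605 and 335 genes of all lower with 0.1 mM adenosine, AMP and for the difference, and 2, 9 and 7 other lysosomal genes lower with 0.05 mM adenosine, 0.1 mM adenosine and AMP. By list, it left lower with 0.1 mM adenosine 2 hydrolases, 1 pump subunit and 0 of the MiT/TFE and mTORC1 list, and with AMP 3 hydrolases, 0 pump subunits, 1 sorting gene and 1 of the MiT/TFE and mTORC1 list. A mean of at least 10 CPM gave medians of 0.48, 0.54, 0.45 and 0.10, 5 members and 3 sorting genes lower with AMP and 0 members lower for the difference. No filter gave 2 members lower and a median of 0.36 with 0.05 mM adenosine. limma gave a median of 0.32 and 2 other lysosomal genes lower there, and 376 genes of all higher for AMP over adenosine. DESeq2 called 6 members lower for AMP over adenosine and 2 lower for the difference between batches.

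Leaving out 1 library at a time gave, with 0.05 mM adenosine, 1 to 2 members lower (2 without DMSO replicate 3 or adenosine replicate 1 or 2), a median of 0.38 to 0.45, and 3 to 8 other lysosomal genes lower (3 and 4 without DMSO replicates 1 and 2, 4 without adenosine replicate 2). In batch 2 it gave a median of 0.35 to 0.41 with AMP, 1 to 3 genes of the MiT/TFE and mTORC1 list lower with either treatment and 2 to 6 sorting genes lower with AMP. For AMP over adenosine it gave 0 to 1 members higher (1 without AMP replicate 3), 2 to 4 lower, a median of -0.159 to -0.0367, 304 to 710 genes of all higher (304 without adenosine replicate 3, 362 without AMP replicate 2) and 104 to 281 lower (104 without adenosine replicate 3, 158 and 157 without AMP replicates 1 and 2). For the difference between batches it gave 2 to 7 members higher (7 without batch 1 DMSO replicate 3 or adenosine replicate 1, 2 without batch 2 DMSO replicate 2), 0 to 2 lower, a median of -0.0356 to 0.0944, 523 to 1035 genes of all higher (523 without batch 2 DMSO replicate 2) and 375 to 1028 lower (447 and 441 without batch 1 DMSO replicate 2 and adenosine replicate 3, 459, 375 and 437 without batch 2 DMSO replicates 1, 2 and 3).

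Libraries of the same replicate number did not deviate together throughout: their correlations ran from -0.0157 to 0.0811 in batch 1 and from -0.0647 to 0.291 in batch 2, and 2 of 6 and 3 of 9 libraries correlated best with their own number. The median correlation was 0.0549 in batch 1 and 0.102 in batch 2. Between libraries of different groups and different numbers it was -0.0266 and -0.068. The numbers were not taken as pairs, but these values do not settle whether libraries were paired. With the replicate number as a block, 21 members were higher and 1 lower with 0.05 mM adenosine, 25 and 7 with 0.1 mM adenosine, 24 and 8 with AMP, 0 and 5 for AMP over adenosine, and 4 and 1 for the difference between batches. Sgsh, near 1 FPKM, had log2 fold changes of batch 2 with an SE of 0.27 with adenosine and 0.28 with AMP. Arsb, at 3.68 FPKM in DMSO cells of batch 2, had an SE of 0.27 with each. The part of depth in these SE values was not tested.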
